A study of Mus musculus with 2 samples.

Results

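The cells described here are adrenal cortical cells with Cyp11b2 transcript, which encodes aldosterone synthase, the last enzyme of aldosterone synthesis. They came from adrenals of male mice aged 15 weeks, recorded as WT and carrying SF1-Cre with Rosa mTmG, a reporter that switches to membrane GFP after Cre recombination. SF1-Cre acts in steroid-producing lineages. Per the labels, 26 adrenals were dissociated, DAPI-negative cells positive for the DNA dye Vybrant DyeCycle Ruby were sorted, and no gate on GFP was named. The 2 single-cell RNA libraries (library 1 and library 2) carry the same labels and form 1 group (the labels do not say how the animals were divided between them). P-values therefore concern only differences between cell classes within these 2 libraries. They rest mostly on a spread shared over all genes (11.2 and 11.8 prior degrees of freedom against 1 and 3 residual in the 2 fits). A small p-value thus does not show that a single gene was steady over both libraries.

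Members were chosen by their own transcript levels, with at least 100 CPM and at least 2 UMIs of Cyp11b2 (a UMI marks 1 captured transcript, and CPM are UMIs of a gene per 1000000 UMIs of the cell). Each also had under 200 CPM of Cyp11b1, at least 2000 CPM of the nuclear RNA Malat1, under 600 CPM of Nr4a1 and Nr4a2 together, and under 500 CPM of Aldh1a1. These limits chose 950 of 6904 passing cells, 679 of 4892 in library 1 (13.9%, exact binomial 95% interval 12.9 to 14.9%) and 271 of 2012 in library 2 (13.5%, 12 to 15%). Intervals here and below cover counting error only. Of 1052 and 404 passing cells with enough Cyp11b2, the Cyp11b1 limit removed 139 and 54, the Malat1 limit 142 and 10, the Nr4a limit 92 and 69, and the Aldh1a1 limit none. Without the last 3 limits the share would have been 18.7% and 17.4%.

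Members were compared with all other passing cells (4213 and 1741) and with 2 cortical classes under the same limits on Malat1, Nr4a and Aldh1a1, each with at least 1000 CPM of Cyp11a1. The first held 1979 and 811 cells below both enzyme thresholds, called cells low in both enzymes. The second held 828 and 431 cells with at least 200 CPM of Cyp11b1 and Cyp11b2 below its threshold, called Cyp11b1-gated cells. Members held a median of 21034 and 18879 UMIs, against 18106 and 14986 in cells low in both enzymes. The libraries shared 4 barcodes, none of them a member.

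The outer zone of the adrenal cortex, the zona glomerulosa, makes aldosterone when angiotensin II or extracellular potassium raises calcium in its cells. The zona fasciculata beneath it makes glucocorticoid under ACTH through cAMP and uses Cyp11b1 for the last step. Both zones start from cholesterol, which is made in the cell or taken up from lipoproteins, carried into mitochondria by Star and cleaved there by Cyp11a1 with electrons passed on by ferredoxin.

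**Figure D1:**
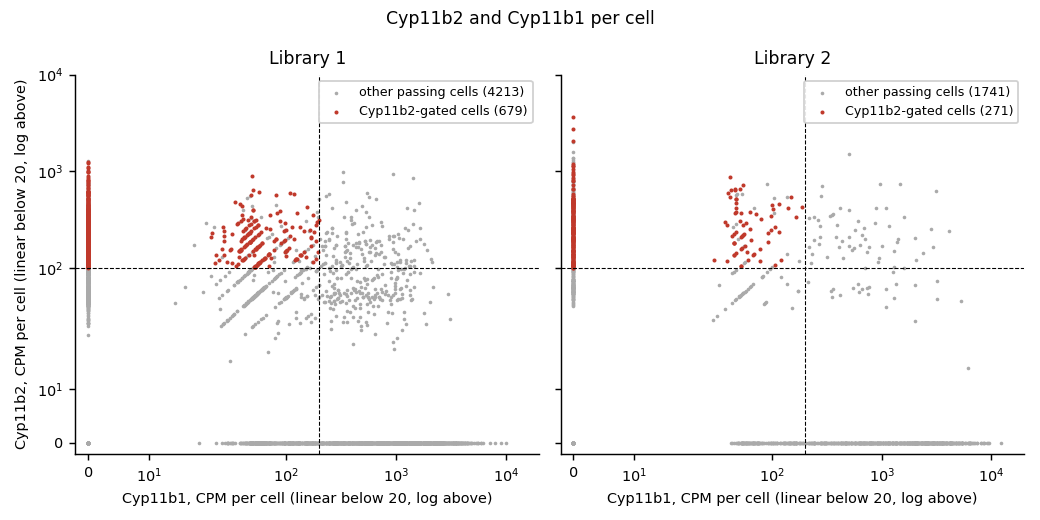
Cyp11b2 against Cyp11b1 in every passing cell, in CPM per cell, for library 1 (left) and library 2 (right), with both axes linear below 20 and logarithmic above. Red points are the 679 and 271 Cyp11b2-gated cells, grey points the 4213 and 1741 other passing cells, and dashed lines the thresholds of 100 and 200 CPM. Grey points above the Cyp11b2 threshold and left of the Cyp11b1 threshold failed another limit.

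Cyp11b2 itself chose the cells, so its level is a description. Its median over members was 203 CPM in library 1 and 247 CPM in library 2, and the highest cell reached 1245 and 3599 CPM. No UMI of Cyp11b1 was found in 74.4% and 75.6% of members, and no leukocyte of the 83 and 72 in the libraries had a Cyp11b2 UMI. Cyp11b2 (chr15:74851010-74856318, mm10) lies beside its near copy Cyp11b1 (chr15:74834125-74841643), and reads that fit both could not be told apart from these counts. Members within 10 CPM above the threshold numbered 42 and 17, and their summed Fdx1 level was 3767 and 2913 CPM. The 64 and 10 cells within 10 CPM below it had 3686 and 3407 CPM of Fdx1. Vsnl1 stood at 643 and 744 CPM just inside the threshold and 688 and 969 CPM just outside it, Dab2 at 1712 and 2785 CPM against 1719 and 3004 CPM, and Wnt4 at 2305 and 1787 CPM against 2587 and 2260 CPM. These 3 markers were thus not higher just inside the threshold in either library.

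The label was checked against Vsnl1, a calcium sensor, Dab2, an endocytic adaptor, and Wnt4, a WNT ligand of the outer cortex. All 3 transcripts were present in 99.6% of members in library 1 and 98.2% in library 2. Cells above both enzyme thresholds, 113 and 34 in number, were level with them at 99.1% and 97.1%. The same held for 89.9% and 87.7% of cells low in both enzymes, for 70.4% and 62.4% of Cyp11b1-gated cells, and for 1.20% and 0% of leukocytes, which were far shallower (medians of 4860 and 4283 UMIs). Vsnl1 stood at 740 and 1004 CPM of summed UMIs in members of the 2 libraries, at 459 and 574 CPM in cells low in both enzymes and at 243 and 192 CPM in Cyp11b1-gated cells. The members were the highest of these 3 classes in each library, and neither other class overlapped them. The fitted log2 difference of Vsnl1 was 0.81 ± 0.11 (SE, n = 2 libraries here and throughout; edgeR adjusted p = 0.00014) against cells low in both enzymes and 2.05 ± 0.12 (edgeR adjusted p = 8.1e-09) against Cyp11b1-gated cells. Dab2 was also higher, by 0.44 ± 0.08 (edgeR adjusted p = 0.0026) and 1.09 ± 0.09 (edgeR adjusted p = 2.4e-07). Wnt4 was higher than in Cyp11b1-gated cells, at 2376 and 2001 CPM against 1838 and 1476 CPM, a log2 difference of 0.51 ± 0.04 (edgeR adjusted p = 6.1e-07). Cells low in both enzymes held 2434 and 2201 CPM of Wnt4, a log2 difference of -0.03 ± 0.04 (edgeR adjusted p = 0.75). The label fits these 3 markers, which most cells low in both enzymes also carried. A longer list held 8 glomerulosa markers, of which 6 were tested. Against cells low in both enzymes 3 were higher (Agtr1b, Vsnl1 and Dab2), Shh was lower and 2 did not pass. Over all genes in that comparison 7.9% were higher and 5.04% lower. Against cells above both enzyme thresholds 0 of the 6 passed. Only 0.206% of all genes passed there, so this count says little about the markers. Oprk1, also listed, had no UMI in members or in the other passing cells.

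Markers of leukocytes, endothelium, medulla, capsule and fibroblasts were low in members, while those of the zona fasciculata were not. The 7 fasciculata markers, Cyp11b1 among them, summed to 5905.5 and 4470.5 CPM in members and 5621.8 and 4465.2 CPM in cells low in both enzymes. Of 5 tested against that class, 2 were higher (Akr1b7 and Mrap) and 0 lower, beside 7.9% and 5.04% over all genes. The 5 erythroid markers summed to 17.3 and 60.3 CPM in members. Macrophage markers are given at the end. The 8 leukocyte markers summed to 26.7 and 34.9 CPM in members and 21.5 and 42.0 CPM in cells low in both enzymes. Of the 2 tested against that class, Cytip was higher in members and the other did not pass. The 8 endothelial markers summed to 13.6 and 15.3 CPM in members, with Cdh5 at 0. Among 8 medulla markers Th, Dbh, Pnmt, Chga and Npy were at 0, and among 8 capsule and fibroblast markers all but Rspo3 were at 0.

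Against all other passing cells, 1514 of 12863 genes tested (11.8%) were higher in members and 1394 (10.8%) were lower, 22.6% in all. The genes with the largest rise were Slc6a5, Dkk3, Col18a1, Kcnq3, Scg5, Clstn3, Eno3, Ppp2r2b, Nsf, Agtr1b, Pcdh19 and Slc2a4, with log2 differences from 1.12 for Slc2a4 to 1.61 for Slc6a5. The other passing cells include leukocytes, and the 12 largest falls were of genes known from blood and immune cells: Igkc, S100a8, S100a9, Lyz2, Hbb-bt, Cd52, Tyrobp, Hba-a1, Hba-a2, Cd74, Ctss and H2-Ab1. Igkc had no UMI in members, and Cd74, Ctss and H2-Ab1 changed sign when only cortical cells were compared with. The 8 leukocyte markers summed to 71.2 and 172 CPM in the other passing cells. Directions within the cortex are therefore given below from the 2 cortical classes.

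Calls in this comparison depended on the test. DESeq2 called 450 genes higher and 282 lower, cells thinned to 5000 UMIs gave 869 and 780, and a fit with no library term called 0 and 0 (331 and 841 at an unadjusted p under 0.05).

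Against cells low in both enzymes, 959 of 12145 genes (7.9%) were higher in members and 612 (5.04%) lower, 12.9% in all. Slc6a5, a sodium-coupled glycine transporter, had the largest rise. It stood at 20.7 and 43.2 CPM in members against 6.72 and 10.7 CPM, a log2 difference of 1.85 ± 0.17 (edgeR adjusted p = 6.7e-06). Dkk3, a secreted protein of the Dickkopf family, stood at 41.0 and 36.1 CPM against 15.3 and 15.4 CPM, a log2 difference of 1.41 ± 0.09 (edgeR adjusted p = 1.6e-07). For both genes each library of members lay above each library of the compared class. Acvr1c, a type I receptor of the activin and nodal family, rose by 1.83 ± 0.14 on the log2 scale (edgeR adjusted p = 8.9e-07), Clstn3, a calsyntenin of neuronal membranes, by 1.41 ± 0.09 (edgeR adjusted p = 1.3e-07) and Camk2n2, an inhibitor of CaM kinase II, by 1.43 ± 0.15 (edgeR adjusted p = 1.7e-05). Here too the count depended on the test: DESeq2 called 516 higher and 279 lower, thinned cells gave 595 and 333, and the fit with no library term called 0 and 0 (321 and 404 at an unadjusted p under 0.05). Of 64 genes given here as called against this class, DESeq2 did not call Clcn2, Cyp21a1, Kcnk1, Kcnk9, Nr4a3, Nr5a1, Pde10a, Rgs4 and Shh, and Adcy6, Clcn2, Kcnk1 and Lpar1 were not called in thinned cells.

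The largest falls against cells low in both enzymes were of Acan, the cartilage proteoglycan aggrecan, the stress cytokine Gdf15, the immunoglobulin heavy chain gene Ighm, the secreted phospholipase Pla2g5, the differentiation inhibitor Id3 and the cholesterol exporter Abca1. Acan stood at 6.73 and 5.04 CPM in members against 26.4 and 21.4 CPM, a log2 difference of -1.93 ± 0.12 (edgeR adjusted p = 1.6e-07). Gdf15 differed by -1.36 on the log2 scale in library 1 and by -3.16 in library 2, so its size was less steady than that of Acan.

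Ly6d, a small membrane-anchored protein of the Ly6 family (chr15:74762056-74763620, mm10), was an abundant transcript that fell, chosen after its values were seen. Its level was 5854 and 3689 CPM in members, 14405 and 11806 CPM in cells low in both enzymes and 8184 and 4891 CPM in Cyp11b1-gated cells. Members were thus the lowest of the 3 classes within each library. The log2 difference of Ly6d was -1.43 ± 0.07 (edgeR adjusted p = 5.0e-08) against cells low in both enzymes and -0.35 ± 0.07 (edgeR adjusted p = 0.0017) against Cyp11b1-gated cells. The second call was lost with DESeq2 (adjusted p = 0.43). Leukocytes held 1515 and 592 CPM of Ly6d.

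Steroid genes were split. The electron donor Fdx1 (adrenodoxin, chr9:51943306-51963556, mm10), which serves Cyp11a1 and both Cyp11b enzymes, stood at 5357 and 5535 CPM in members. Cells low in both enzymes held 2346 and 1860 CPM of Fdx1 and Cyp11b1-gated cells 2005 and 1383 CPM. Levels in members were above those of either class in each library. The log2 difference of Fdx1 was 1.44 ± 0.12 (edgeR adjusted p = 2.2e-06) and 1.80 ± 0.13 (edgeR adjusted p = 7.5e-08). Star, which carries cholesterol into mitochondria, was higher by 0.47 ± 0.05 (edgeR adjusted p = 1.6e-05) and 0.30 ± 0.05 (edgeR adjusted p = 0.00029) on the log2 scale.

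Cyp11a1, which cleaves the cholesterol side chain, stood at 3078 and 3179 CPM in members and at 3105 and 3264 CPM in cells low in both enzymes. The log2 difference of Cyp11a1 was 0.03 ± 0.04 (edgeR adjusted p = 0.67), and against Cyp11b1-gated cells, at 3937 and 4415 CPM, it was -0.31 ± 0.04 (edgeR adjusted p = 3.6e-05). Both compared classes were chosen with at least 1000 CPM of Cyp11a1 and members were not (2 and 1 members lay under it), so this gene is not tested independently of the class limits. Hsd3b1, which forms progesterone, followed the same pattern, with -0.08 ± 0.06 (edgeR adjusted p = 0.46) and -0.63 ± 0.07 (edgeR adjusted p = 3.7e-06). For its near copy Hsd3b6 the log2 differences were -0.10 ± 0.13 (edgeR adjusted p = 0.70) and 0.35 ± 0.14 (edgeR adjusted p = 0.075), and reads shared by this pair could not be told apart. The 21-hydroxylase Cyp21a1 lay between the classes, 0.27 ± 0.07 above cells low in both enzymes (edgeR adjusted p = 0.014) and at -0.28 ± 0.07 against Cyp11b1-gated cells (edgeR adjusted p = 0.0046). Over the 13 steroid synthesis genes tested against cells low in both enzymes, 6 rose (Fdx1, Stard4, Star, Cyp21a1, Por and Fdxr), H6pd fell and 6 did not pass, with a median of 0.13 beside 0.00 over all genes. The shares over all genes to set beside this and the later list counts in this comparison are 7.9% higher and 5.04% lower.

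Genes of cholesterol synthesis were higher in members as a group. Against cells low in both enzymes 19 of 24 rose, 0 fell and 5 did not pass (0 lower also with DESeq2 and at RLE scaling), with a median log2 difference of 0.72. Against Cyp11b1-gated cells 20 of 24 rose and 0 fell (15.5% and 12.7% over all genes), with a median of 1.00. Cyp51, the lanosterol demethylase, stood at 63.7 and 127 CPM in members against 29.6 and 57.3 CPM in cells low in both enzymes, a log2 difference of 1.18 ± 0.08 (edgeR adjusted p = 2.1e-07). Within each library the member level was above that of the compared class, although the library 1 members were close to the library 2 cells low in both enzymes. Idi1, the isopentenyl diphosphate isomerase, rose by 1.11 ± 0.08 (edgeR adjusted p = 2.8e-07), Sqle, the squalene epoxidase, by 0.98 ± 0.11 (edgeR adjusted p = 2.7e-05) and Hmgcs1, which forms HMG-CoA, by 0.84 ± 0.09 (edgeR adjusted p = 2.5e-05) on the log2 scale.

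Fewer of the genes that take up, store or export cholesterol passed. Of 19 tested against cells low in both enzymes, 7 rose, 1 fell and 11 did not pass, with a median of 0.13. Scarb1, the HDL receptor, rose by 0.94 ± 0.07 (edgeR adjusted p = 5.1e-07), the lysosomal lipase Lipa by 0.68 ± 0.05 (edgeR adjusted p = 7.4e-07) and Npc1, which moves cholesterol out of lysosomes, by 0.66 ± 0.09 (edgeR adjusted p = 0.00012). Abca1, which exports cholesterol from the cell, was the gene that fell, at 10.3 and 13.9 CPM in members against 33.0 and 51.2 CPM. Its log2 difference was -1.69 ± 0.13 (edgeR adjusted p = 9.4e-07).

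Promoters of Hmgcs1, Cyp51 and Fdx1 are shown as examples of the sterol genes and the steroid gene that were higher than in both cortical classes. Each line holds the 250 bases before the transcription start on the strand of the gene, from RefSeq on GRCm38.p6, the source of mm10. Capitals mark matches on either strand to AAGGTCA (bound by SF1 and NR4A receptors), TGACG (the core of cAMP response elements), TCACNCCAC (the core of a sterol regulatory element) and GGGGCGGGG (a GC box). The Hmgcs1 window is chr13:119690101-119690350 (+), that of Cyp51 chr5:4104698-4104947 (-) and that of Fdx1 chr9:51963603-51963852 (-). The annotation used for the gene coordinates in this text has other starts for Cyp51 (4104746, inside its window) and Fdx1 (51963556, short of its window). Bases after the RefSeq start matched a transcript of that annotation for Cyp51 only, and none matched in reverse.
Hmgcs1: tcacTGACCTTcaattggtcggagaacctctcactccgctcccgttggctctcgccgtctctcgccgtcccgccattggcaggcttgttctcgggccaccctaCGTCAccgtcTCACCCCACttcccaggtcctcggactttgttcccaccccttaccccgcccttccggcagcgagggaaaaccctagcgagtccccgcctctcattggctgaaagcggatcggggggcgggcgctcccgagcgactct
Cyp51: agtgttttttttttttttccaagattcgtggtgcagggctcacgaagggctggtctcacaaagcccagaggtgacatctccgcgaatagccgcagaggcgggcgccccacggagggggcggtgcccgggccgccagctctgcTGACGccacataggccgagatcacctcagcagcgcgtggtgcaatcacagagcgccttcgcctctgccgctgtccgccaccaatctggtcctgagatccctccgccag
Fdx1: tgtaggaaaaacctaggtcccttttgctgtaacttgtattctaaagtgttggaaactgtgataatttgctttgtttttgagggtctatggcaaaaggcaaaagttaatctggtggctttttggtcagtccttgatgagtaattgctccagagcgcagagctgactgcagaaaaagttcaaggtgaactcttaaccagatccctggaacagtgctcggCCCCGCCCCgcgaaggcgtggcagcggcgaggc

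Hmgcs1 held matches to 3 of the 4 motifs, Cyp51 to TGACG and Fdx1 to the GC box on the opposite strand. Of 32851 promoter windows of this length in the RefSeq table, 4.08% held AAGGTCA, 17.8% TGACG, 1.05% TCACNCCAC and 10.4% GGGGCGGGG. Counted by gene, 4.70%, 19.8%, 1.22% and 11.8% of 27025 genes held them in at least 1 window. Among the 24 cholesterol synthesis genes, 19 were in the table, and 8 of these (Cyp51, Ebp, Hmgcs1, Hsd17b7, Insig1, Insig2, Sc5d and Srebf2) held TGACG, 3 (Dhcr7, Ebp and Srebf2) GGGGCGGGG, 2 (Dhcr7 and Hmgcs1) AAGGTCA and 1 (Hmgcs1) TCACNCCAC. No matches in the 3 windows overlapped, and a match describes letters only.

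Both type 1 angiotensin receptor genes and 3 other receptor genes of aldosterone control were higher in members than in cells low in both enzymes. Agtr1b, one of the mouse pair of type 1 angiotensin receptor genes (chr3:20314473-20367177, mm10), stood at 103 and 156 CPM in members, 49.0 and 74.9 CPM in cells low in both enzymes and 25.5 and 27.5 CPM in Cyp11b1-gated cells. Each library of members was above every library of these 2 classes. Cells above both thresholds held 64.0 and 134 CPM, which overlapped the members. The log2 difference of Agtr1b was 1.12 ± 0.10 (edgeR adjusted p = 2.2e-06) and 2.30 ± 0.11 (edgeR adjusted p = 2.1e-09). The other copy, Agtr1a, at 617 and 595 CPM in members, was higher by 0.44 ± 0.07 (edgeR adjusted p = 0.00054) and 0.89 ± 0.07 (edgeR adjusted p = 2.8e-07), and reads shared by the 2 copies could not be told apart. The endothelin receptor Ednra rose by 0.85 ± 0.11 (edgeR adjusted p = 0.00011), the lysophosphatidic acid receptor Lpar1 by 0.49 ± 0.09 (edgeR adjusted p = 0.0015) and the natriuretic peptide receptor Npr1 by 0.29 ± 0.05 (edgeR adjusted p = 0.00075), all against cells low in both enzymes. These 3 were the receptors that passed among 6 tested of 20 listed, and none fell (DESeq2 also called 3 higher and 0 lower).

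Downstream of the angiotensin receptor the list was mixed, with 6 of 23 genes higher, 2 lower and a median of 0.04 against cells low in both enzymes. The diacylglycerol kinase Dgkh rose by 0.63 ± 0.12 (edgeR adjusted p = 0.0020) and the protein kinase C gene Prkcd by 0.74 ± 0.08 (edgeR adjusted p = 2.2e-05). Rgs4 and Rgs2, which both speed the turn-off of G proteins, went opposite ways, Rgs4 by 0.39 ± 0.12 (edgeR adjusted p = 0.043) and Rgs2 by -0.28 ± 0.06 (edgeR adjusted p = 0.0049). Renin transcript, Ren1, was rare, with 34 and 9 UMIs over all members (2.22 and 1.82 CPM) against 0.368 and 0.258 CPM, a log2 difference of 2.65 ± 0.48 (edgeR adjusted p = 0.0017).

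Of 30 channel and pump genes tested against cells low in both enzymes, 10 rose and 4 fell, with a median of 0.07. The background potassium channels that hold the resting potential did not move as 1 group. Kcnk3 (TASK-1) stood at 1895 and 2123 CPM in members and 1925 and 2099 CPM in cells low in both enzymes, a log2 difference of 0.05 ± 0.04 (edgeR adjusted p = 0.44). Kcnk9 (TASK-3) was higher by 0.30 ± 0.09 (edgeR adjusted p = 0.045), Kcnk2 (TREK-1) by 0.89 ± 0.14 (edgeR adjusted p = 0.00053) and Kcnk5 (TASK-2) by 1.02 ± 0.16 (edgeR adjusted p = 0.00052), while Kcnk1 (TWIK-1) fell by 0.36 ± 0.10 (edgeR adjusted p = 0.023) on the log2 scale.

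Among calcium channels, Cacna1d (Cav1.3) stood at 25.4 and 29.2 CPM in members against 14.9 and 18.3 CPM in cells low in both enzymes, a log2 difference of 0.79 ± 0.11 (edgeR adjusted p = 0.00015). Cacna1h (Cav3.2) gave -0.01 ± 0.07 (edgeR adjusted p = 0.95), at 123 and 140 CPM against 128 and 147 CPM. The plasma membrane calcium pump Atp2b4 rose by 1.10 ± 0.14 (edgeR adjusted p = 0.00012), and the chloride channel Clcn2 differed by -0.68 ± 0.16 (edgeR adjusted p = 0.010). The potassium channel gene Kcnj5 was near its detection limit, at 1.18 and 0.605 CPM in members, with a log2 difference of 0.44 ± 0.51 (edgeR adjusted p = 0.65). Calcium sensors and CaM kinases gave 7 of 27 genes higher and 2 lower, with a median of 0.15. Ncald, a relative of Vsnl1, rose by 1.29 ± 0.09 (edgeR adjusted p = 3.0e-07) and Hpcal4 by 0.76 ± 0.12 (edgeR adjusted p = 0.00073).

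**Figure D2:**
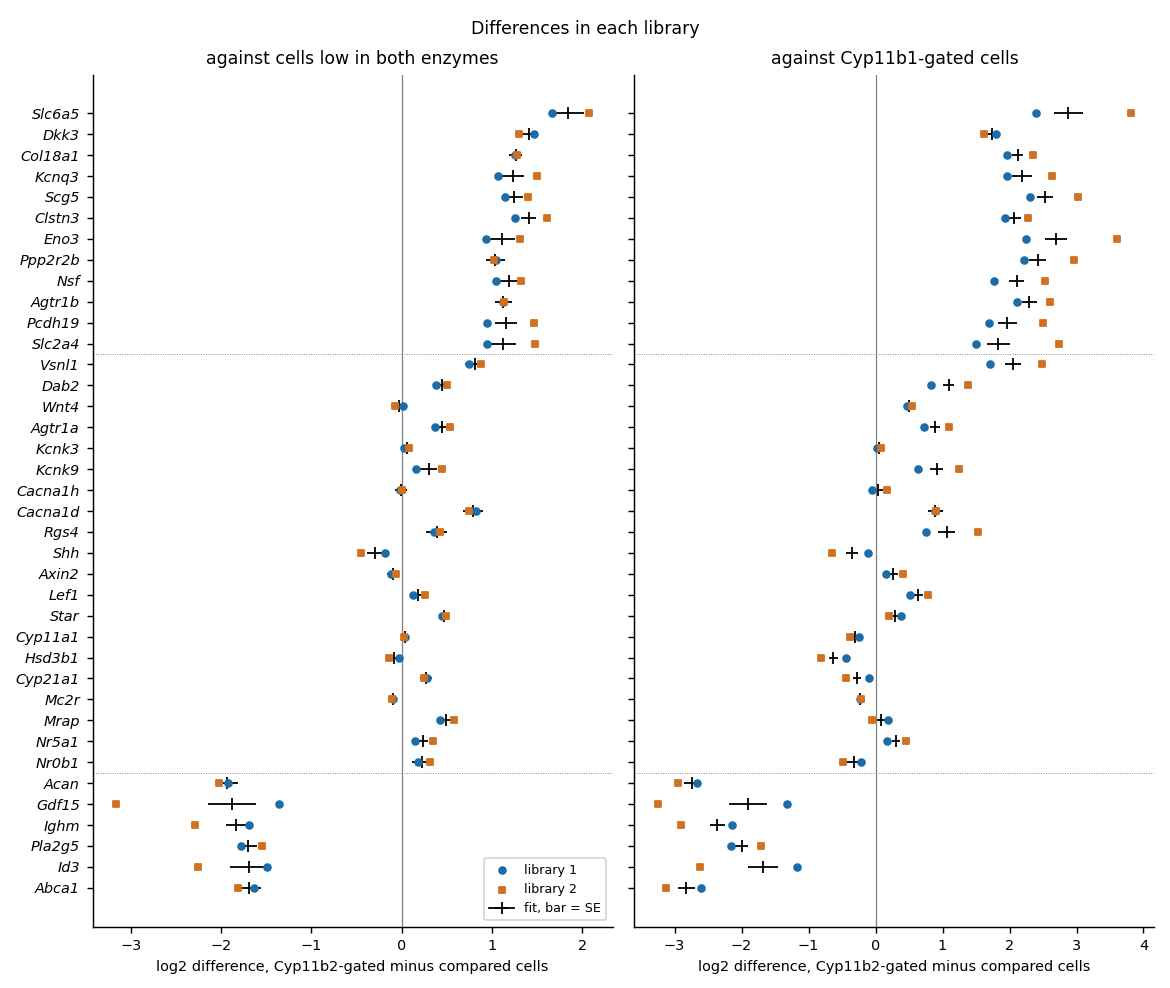
Log2 differences of Cyp11b2-gated cells against cells low in both enzymes (left) and against Cyp11b1-gated cells (right). Blue circles are library 1, orange squares library 2, black ticks the fitted value with bars of 1 SE. The upper block holds the 12 largest rises against all other passing cells, the middle block genes fixed by name and the lower block the 6 largest falls against cells low in both enzymes. Slc6a5 lies at 1.85 on the left and 2.88 on the right, and Wnt4 at -0.03 and 0.51.

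WNT signalling keeps the outer cortex in its glomerulosa state, and Shh is a signal from outer cortical cells to the capsule. Of 33 WNT genes tested, 4 were higher in members than in cells low in both enzymes (Dkk3, Wif1, Kremen1 and Lrp6), 2 were lower (Wnt6 and Wnt5a) and the median was 0.09. Over all genes in this comparison 7.9% were higher and 5.04% lower. Wif1 binds WNT ligands outside the cell and Kremen1 is a receptor of Dickkopf proteins. DESeq2 called 1 WNT gene higher, and 2 were called higher in thinned cells. The WNT target Axin2 gave -0.10 ± 0.07 (edgeR adjusted p = 0.39) and Lef1, which carries the signal to DNA, 0.18 ± 0.07 (edgeR adjusted p = 0.093). Against Cyp11b1-gated cells, where 15.5% of all genes were higher and 12.7% lower, 17 of 33 WNT genes were higher and 2 lower. Axin2 stood there at 0.26 ± 0.07 (edgeR adjusted p = 0.011) and Lef1 at 0.63 ± 0.07 (edgeR adjusted p = 9.0e-06). With Cyp11b2 at 200 CPM or more the call of Axin2 was lost. Whether the 2 comparisons differ for these genes was not tested.

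Shh stood at 237 and 225 CPM in members, 279 and 323 CPM in cells low in both enzymes and 276 and 377 CPM in Cyp11b1-gated cells. Members were lowest in each library, by little in library 1. The log2 difference of Shh was -0.30 ± 0.09 (edgeR adjusted p = 0.041) and -0.36 ± 0.09 (edgeR adjusted p = 0.0087). Both calls were lost with DESeq2. Gas1, a co-receptor of Shh, differed by -0.50 ± 0.08 (edgeR adjusted p = 0.00074) from cells low in both enzymes, and no gene of the 10 tested hedgehog genes was higher there.

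On the ACTH side, the receptor gene Mc2r stood at 319 and 293 CPM in members and 353 and 330 CPM in cells low in both enzymes, a log2 difference of -0.10 ± 0.04 (edgeR adjusted p = 0.14). Its partner Mrap, which brings the receptor to the membrane, was higher by 0.48 ± 0.07 (edgeR adjusted p = 0.00040). Of 28 ACTH and cAMP genes tested, 8 rose and 1 fell, with a median of 0.12. The cAMP phosphodiesterase Pde10a rose by 1.20 ± 0.17 (edgeR adjusted p = 0.00028), the adenylyl cyclase Adcy6 by 0.64 ± 0.12 (edgeR adjusted p = 0.0015) and the kinase regulatory subunit Prkar2a by 0.55 ± 0.07 (edgeR adjusted p = 8.0e-05). Akr1b7, an aldose reductase often used as a fasciculata marker, stood at 1440 and 1181 CPM in members against 920 and 719 CPM, a log2 difference of 0.74 ± 0.10 (edgeR adjusted p = 0.00011).

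Among 29 transcription factor genes of the cortex 5 rose against cells low in both enzymes, 2 fell and the median was 0.08. Nr5a1, which encodes SF1, rose by 0.24 ± 0.06 (edgeR adjusted p = 0.014) and Crem, a cAMP-responsive factor, by 0.95 ± 0.09 (edgeR adjusted p = 6.2e-06). Nr0b1, which encodes the SF1 repressor DAX1, gave 0.23 ± 0.11 (edgeR adjusted p = 0.22). Nr4a3, the receptor of the family left out of the limits, rose by 0.48 ± 0.12 (edgeR adjusted p = 0.013). Its relatives Nr4a1 and Nr4a2 were capped by the rule in all 3 classes, and their levels of 50.5 and 129 CPM and of 47.9 and 75.4 CPM in members are given without a test.

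Of 41 nuclear genes of oxidative phosphorylation tested, 17 were higher than in cells low in both enzymes, 0 lower (DESeq2 called 16 and 0) and 24 did not pass, with a median of 0.11. Cycs, cytochrome c, rose by 0.33 ± 0.05 (edgeR adjusted p = 0.00039). Mitochondrially encoded UMIs, on which cells were filtered, made up a median of 6.92% and 7.09% of UMIs in members against 5.45% and 4.74%, and their part in the result was not tested.

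Many cell cycle genes were lower in members than in cells low in both enzymes. Of 16 S phase genes 14 fell against cells low in both enzymes, with a median of -0.76, and of 16 genes of G2 and M phase 8 fell, with a median of -0.97. No gene of either list was higher. DESeq2 called 10 and 4 lower and 0 higher, and in thinned cells 5 of 14 S phase genes and 5 of 10 genes of G2 and M phase were lower and 0 higher. The DNA clamp Pcna stood at 30.7 and 32.9 CPM in members against 49.9 and 50.8 CPM, a log2 difference of -0.62 ± 0.08 (edgeR adjusted p = 0.00012). Mki67, a marker of dividing cells, was at 7.06 and 15.7 CPM against 13.3 and 33.5 CPM, a log2 difference of -0.94 ± 0.12 (edgeR adjusted p = 0.00015). After each cell was thinned to 5000 UMIs, UMIs of at least 3 cell cycle genes were found in 10.8% and 15.7% of members and in 17.6% and 24.1% of cells low in both enzymes. Without thinning those shares were 72.6% and 73.4% against 72.8% and 71.3%, and thinning left out 1 and 10 members and 41 and 82 cells low in both enzymes. Against Cyp11b1-gated cells 3 of 16 S phase genes fell and 1 rose, and no G2 or M phase gene passed. Over all genes 12.7% were lower and 15.5% higher in that comparison, so these counts show no clear cell cycle difference. Against cells above both enzyme thresholds, where 0.206% of all genes passed, Mki67 was higher in members and no other listed gene passed. The 16 G2 and M phase genes summed to 44.6 and 142 CPM in members against 7.26 and 9.59 CPM there. In library 2 that sum was 349 CPM in members at 100 to 200 CPM of Cyp11b2. It was 15.2 CPM in library 2 members at 200 to 400 CPM, 5.80 CPM in those at 400 CPM or more, and 226 CPM in cells low in both enzymes. In library 1 the 3 member bins held 25.8, 79.9 and 6.24 CPM, and cells low in both enzymes 94.1 CPM. The highest bin was the lowest in both libraries, and the order of the other 2 differed.

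Genes induced early by stress or dissociation were lower too: 8 of 17 tested fell against cells low in both enzymes and 0 rose (6 and 0 with DESeq2), with a median of -0.37. Jun stood at 155 and 224 CPM in members against 197 and 353 CPM, a log2 difference of -0.43 ± 0.07 (edgeR adjusted p = 0.00049), and Egr1 gave -1.09 ± 0.14 (edgeR adjusted p = 0.00013). The cap on Nr4a1 and Nr4a2, genes of the same early response, held for both classes.

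**Figure D3:**
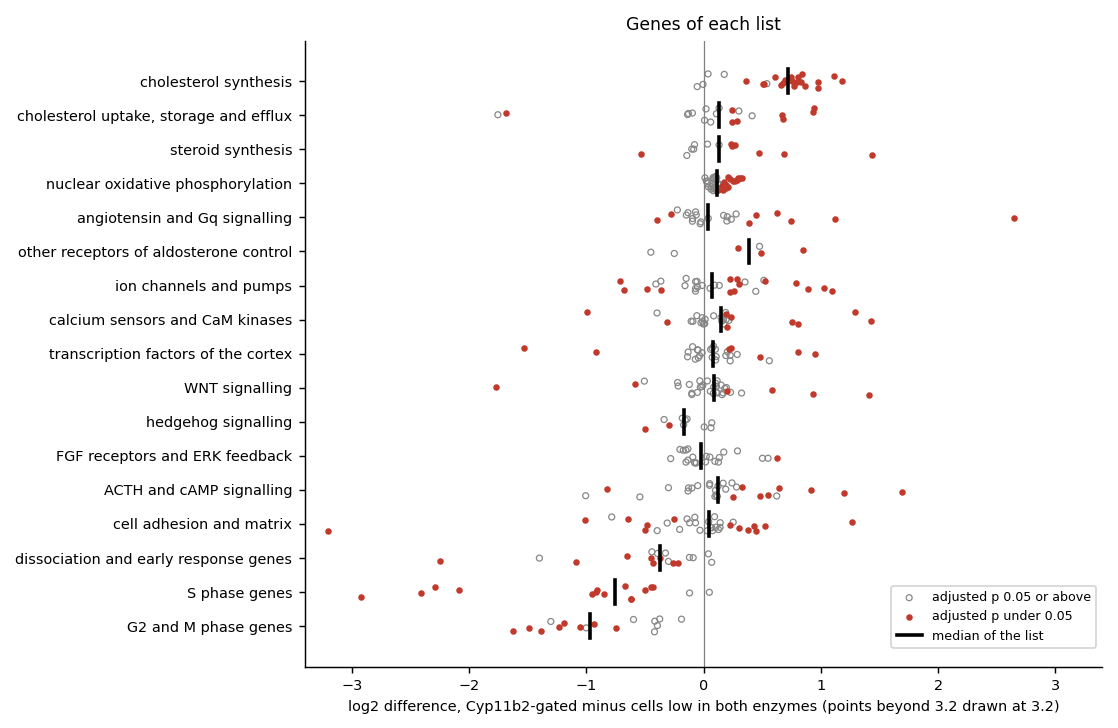
Log2 differences of Cyp11b2-gated cells against cells low in both enzymes for the genes of 17 lists, 1 point a gene, with points beyond the axis drawn at its edge and vertical scatter added for legibility. Red points passed the test, open points did not, and black bars are list medians, such as 0.72 for cholesterol synthesis and -0.97 for G2 and M phase.

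Against Cyp11b1-gated cells 1885 of 12145 genes (15.5%) were higher in members and 1539 (12.7%) lower, 28.2% in all. The largest rises were of Slc6a5, the muscle enolase Eno3, Scg5, a chaperone of secretory granules, Gulo, the last enzyme of vitamin C synthesis, the phosphatase subunit Ppp2r2b and the actin-binding Tmsb4x. Eno3 stood at 333 and 344 CPM in members against 75.3 and 30.3 CPM, a log2 difference of 2.69 ± 0.17 (edgeR adjusted p = 2.4e-08). The largest falls were of Mmd2, the acyl-CoA synthetase Acsbg1, Abca1, the homeobox gene Hhex, Acan and Cited1. Mmd2 stood at 0.588 and 0.605 CPM in members against 36.2 and 60.1 CPM, a log2 difference of -6.06 ± 0.28 (edgeR adjusted p = 1.6e-09). Hhex gave -2.82 ± 0.15 (edgeR adjusted p = 4.2e-09), and against cells low in both enzymes -0.50 ± 0.17 (edgeR adjusted p = 0.064). DESeq2 called 1356 higher and 928 lower, thinned cells 1101 and 855, and the fit with no library term 136 and 153.

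Cells above both enzyme thresholds numbered 113 and 34, and 9.73% and 17.6% of them were scored as doublets, against 2.80% and 2.58% of members. Between them and the members 25 of 12145 genes (0.206%) passed, and the part of the small cell number in this was not tested. The 15 higher genes (0.124%) included Dkk3, at 41.0 and 36.1 CPM in members against 19.7 and 19.2 CPM (log2 difference 1.06 ± 0.16, edgeR adjusted p = 0.021), and Stmn1, Ly6k, Col18a1, Scg5 and Cspg5. Among the 10 lower (0.0823%) was the alcohol dehydrogenase Adh1, at 41.3 and 27.0 CPM against 80.6 and 92.7 CPM (-1.14 ± 0.17, edgeR adjusted p = 0.021).

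Some transcripts went up or down with Cyp11b2 within the members and others did not. Members were split at 200 and 400 CPM of Cyp11b2, which gave 331, 273 and 75 cells in library 1 and 99, 102 and 70 in library 2. Cells low in both enzymes were split into those with no Cyp11b2 UMI (1440 and 646) and those with some (539 and 165). The 5 bins rank cells by the gene that chose them, so they are described with no test. Median depth was 17163 and 14675 UMIs in the lowest bin and 24331 and 19615 in the highest, and its part in these trends was not tested.

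Fdx1 climbed through all 5 bins, at 1822, 3375, 4605, 5515 and 8043 CPM in library 1 and at 1472, 3154, 3922, 5646 and 7919 CPM in library 2. Ly6d went the other way, at 16444, 10398, 7740, 4736 and 1556 CPM in library 1 and 13097, 7495, 5660, 2762 and 1987 CPM in library 2. In both libraries each step of these 2 genes had the same sign, also between the 3 bins of members.

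Of the 12 genes with the largest rise against all other passing cells, 12 in library 1 and 11 in library 2 increased at each step over the member bins. Kcnq3 in library 2 was the exception. Of the 12 genes with the largest fall in that comparison, known from blood and immune cells, 4 in library 1 and 0 in library 2 decreased at each step. Igkc, S100a8 and S100a9 of this set had at most 3 UMIs in the members of either library. Both sets of 12 were picked from these same cells, so the counts are no separate evidence. Agtr1b rose from 39.8 CPM in the lowest bin to 163 CPM in the highest in library 1 and from 68.6 to 176 CPM in library 2. The 24 cholesterol synthesis genes together went from 812 to 1656 CPM and from 1090 to 2372 CPM. Abca1 dropped from 40.9 to 6.2 CPM and from 57.1 to 10.8 CPM.

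Some other glomerulosa genes did not rise steadily with Cyp11b2 over the member bins, and Shh went down from the lowest to the highest of the 5 bins. Agtr1a stood at 622, 619 and 587 CPM over the member bins of library 1 and at 594, 591 and 604 CPM in library 2. Wnt4 was 2444, 2402 and 1999 CPM and 2003, 2144 and 1781 CPM, lowest in the highest bin of each library. Shh dropped from 290 CPM in cells without Cyp11b2 to 219 CPM in the highest bin of library 1 and from 335 to 207 CPM in library 2. Cyp11a1, used in both zones, stayed between 3030 and 3142 CPM in the 5 bins of library 1 and between 2965 and 3353 CPM in library 2.

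**Figure D4:**
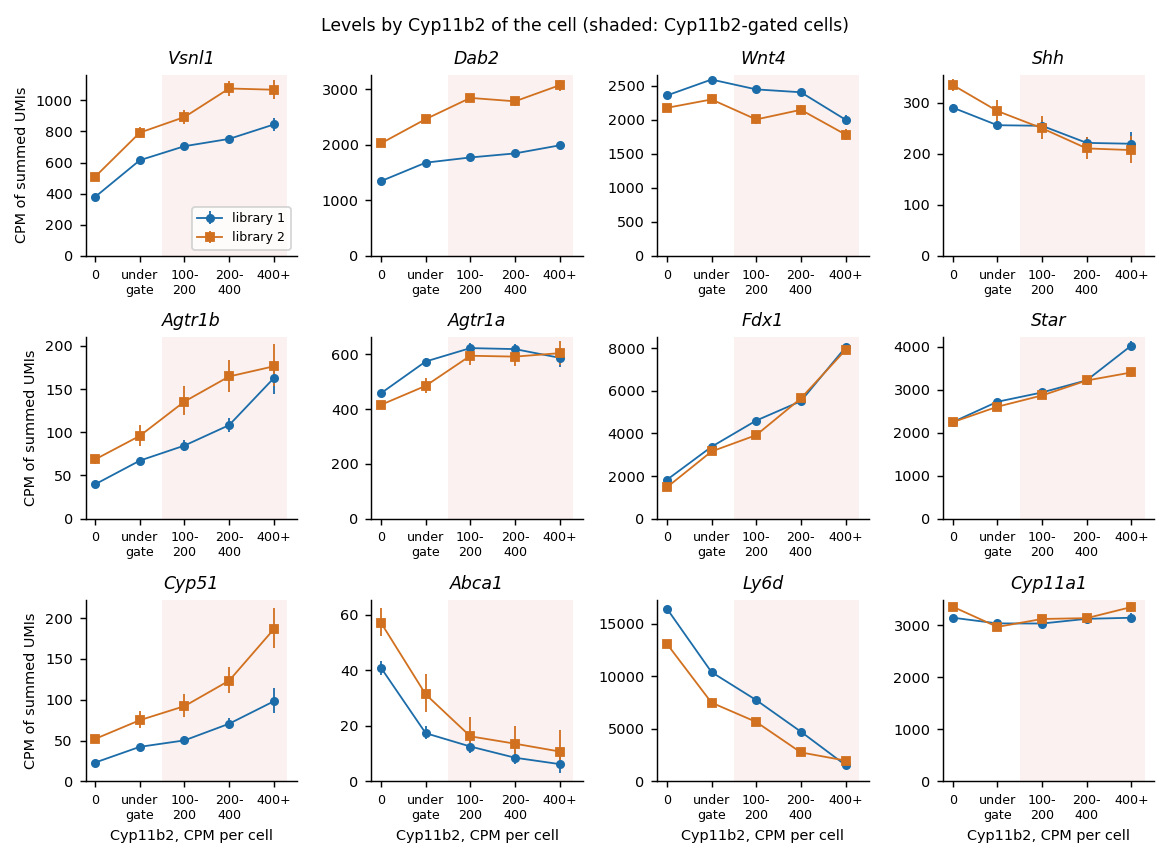
Summed level in CPM of 12 genes over 5 bins of Cyp11b2 per cell, for library 1 (blue circles) and library 2 (orange squares). Bars are exact Poisson 95% intervals of the counts, and the shaded bins are the Cyp11b2-gated cells. Fdx1 climbs to 8043 and 7919 CPM in the highest bin while Ly6d drops to 1556 and 1987 CPM and Cyp11a1 stays near its starting level.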

How the data were processed

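The deposited values are UMI counts, a whole number for each gene and barcode. The submitters' processing notes name Cell Ranger and mm10, and per the file headers the authors ran version 3.1.0. The labels do not say how barcodes were called as cells. Passing cells had at least 1000 UMIs, 500 genes and no more than 30% mitochondrial UMIs (4892 of 5040 and 2012 of 2288 barcodes, with 92905273 and 28023733 UMIs before this filter). Counts were summed per class and library. The 2 quasi-likelihood fits in edgeR 4.0.16 (R 4.3.3) used TMM scaling, filterByExpr, a library term and Benjamini-Hochberg adjustment over all genes at 0.05. The first took 4 sums (members and all other cells, 12863 genes, 1 residual and 11.2 prior degrees of freedom) and the second 8 sums (4 classes, 12145 genes, 3 residual and 11.8 prior). Class sums of 1 library come from the same sample, so the library is the block.

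The 6 gate genes and mitochondrial genes were not tested. On simulated data for members against all other cells (12689 genes), 77 of 99 genes changed by 0.5 log2 and 89 of 99 changed by 1 log2 were called, with 11 false calls. The simulated sums had 1 common spread for all genes and no library effect on single genes. They therefore do not give the recovery or the false calls of the real data. Named genes were the 12 largest changes each way against all other cells and 6 in each other comparison (at least 20 CPM, same sign in both libraries), up to 4 each way per list, and genes fixed by name. C1qb, C1qc, Hmgcs1, Jun, Ly6d, Mki67, Nr4a3, Pcna and Ren1 were named outside this rule after their values were seen. Members and lists were chosen with earlier results of these data known. Some items are not reported here. Doublets were kept, and free RNA was not subtracted. Alternatives were RLE scaling, DESeq2 1.42.0, testing genes of low counts too, a fit without libraries, cells thinned to 5000 UMIs, doublets removed (scrublet in scanpy 1.11.5) and other limits on cells.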

Additional observations from a re-analysis of the deposited data

How the results depend on the processing

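The counts of called genes moved by more than 1.5 times under 3 of the alternatives and by less under the others run. Without the library term (no replicate block) the fits called 0 higher and 0 lower against all other cells, 0 and 0 against cells low in both enzymes (edgeR, with the unadjusted counts given above) and 136 and 153 against Cyp11b1-gated cells. Thinned cells gave 869 and 780, 595 and 333, and 1101 and 855. DESeq2 gave 450 and 282, 516 and 279, and 1356 and 928, of which the 928 was the one past 1.5 times in that last pair. No gene called by the main fit against all other cells was called with the other sign by DESeq2, and 732 of the 2908 were called by both. A single library leaves no residual degrees of freedom, so no count could be had without replicate 1 or 2. The member share became 7.11% and 8.55% with Cyp11b2 at 200 CPM or more, 18.7% and 17.4% without the limits on Malat1, Nr4a and Aldh1a1, and 15.6% in library 2 after thinning.

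Of 144 named genes called against all other cells, signs turned for 9. Of the 64 given as called against cells low in both enzymes, C1qb turned, 64 kept their call with RLE scaling, without doublets and without the low-count filter, 55 with DESeq2 and 0 without the library term. Kcnk9, Lpar1, Mki67 and Rgs4 lost theirs with Cyp11b2 at 200 CPM or more. With only cortical comparison cells the log2 differences became 0.28 for Cd74, 0.23 for Ctss, 0.53 for H2-Ab1, 1.27 for C1qa, 0.11 for Rgs10 and 0.20 for Apoe. With Cyp11b2 at 200 CPM or more, C1qb gave -1.70 against cells low in both enzymes. Without the limits on Malat1, Nr4a and Aldh1a1 they became 0.16 for Cited2, 0.039 for Spry2 and 1.23 for Sik1, and Sik1 gave -1.39 without replicate 2 and 0.065 without replicate 1. The cause was not tested. Depth limits genes of few UMIs, such as Kcnj5 and Ren1.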

Other observations

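Genes of cell adhesion and matrix changed in both directions. Of 33 tested against cells low in both enzymes, 7 rose and 6 fell (7.9% and 5.04% over all genes), with a median of 0.04. Col18a1, a basement membrane collagen, stood at 109 and 174 CPM in members against 47.5 and 75.1 CPM, a log2 difference of 1.26 ± 0.07 (edgeR adjusted p = 1.3e-07). The atypical cadherin Fat1 rose by 0.52 ± 0.08 (edgeR adjusted p = 0.00031) and the collagen IV chain Col4a2 by 0.43 ± 0.06 (edgeR adjusted p = 0.00023), while the integrin Itga9 differed by -0.64 ± 0.11 (edgeR adjusted p = 0.00083). Of 22 genes of FGF receptors and ERK feedback, 1 rose, the growth factor Fgf1, by 0.63 ± 0.08 (edgeR adjusted p = 8.7e-05), and 0 fell, again beside 7.9% and 5.04% over all genes. Nsf, which recycles the proteins that fuse secretory vesicles, stood at 478 and 675 CPM in members against 239 and 282 CPM, a log2 difference of 1.19 ± 0.10 (edgeR adjusted p = 2.2e-06).

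The reporter transcript eGFP stood at 3354 and 3957 CPM in members, 2571 and 2733 CPM in cells low in both enzymes and 2237 and 2242 CPM in Cyp11b1-gated cells, and at 2546 and 2989 CPM in the leukocytes. Its log2 difference against cells low in both enzymes was 0.52 ± 0.06 (edgeR adjusted p = 4.8e-05). TdTomato had no UMI in members.

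The macrophage genes C1qa, C1qb and C1qc were higher in members than in cells low in both enzymes, with log2 differences of 3.89 ± 0.52 (edgeR adjusted p = 0.00014), 4.10 ± 0.42 (edgeR adjusted p = 1.3e-05) and 3.31 ± 0.47 (edgeR adjusted p = 0.00023). Library 1 carried this, with 56 UMIs of C1qa in members against 1 in library 2. The 8 macrophage markers summed to 14.9 and 2.82 CPM in members, 1.71 and 29.9 CPM in cells low in both enzymes and 18297 and 13751 CPM in leukocytes.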
